A study of Mus musculus with 9 samples.

Results

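A set of 10 genes that mark simple epithelia and the intestinal lining was followed in mouse skin after deletion of *Supt6*, the gene of the elongation factor and histone chaperone SPT6. They were chosen by name: the keratins *Krt7*, *Krt8*, *Krt18*, *Krt19* and *Krt20*, the transcription factors *Cdx2* and *Hnf4a*, and *Cdh17*, *Vil1* and *Lgals4*. These were looked up in a table of 17943 genes measured by RNA-Seq in the skin of 9 mice. Of the 10 genes, 8 had a row in the table and all 8 passed the filter of at least 10 counts summed over the 9 mice, as did 16426 genes in all. *Cdx2* and *Hnf4a* had no row and were not analysed here.

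The knockout group held 4 mice that carried the K14-CreERT transgene and floxed *Supt6* alleles (K14-CreERT; *Supt6* fl/fl) and had received tamoxifen. The control group held 5 *Supt6* fl/fl mice given corn oil, which the labels call WT, so the floxed alleles were common to both groups, whereas the transgene, tamoxifen and the deletion cannot be told apart. Skin was collected 10 days after the final injection, and treatment had begun in the first telogen of the hair cycle. The K14 promoter drives Cre in the basal cells of stratified epithelia, so dermal and immune cells of the skin were not targeted. Whether hair follicle, gland and Merkel cells lost *Supt6* was not tested. The labels name ear skin and the study's text dorsal skin. The cartilage genes *Col2a1* and *Acan* were present in every control mouse, at 72.9 ± 37.4 and 154.5 ± 83.8 CPM (TMM-scaled counts per 1000000 counts; SD, n = 5). Depth was 29627334 to 30967109 estimated counts per mouse. The factors that scale these totals for composition (TMM) were 1.198 to 1.315 in the control mice and 0.6738 to 0.9098 in the *Supt6*-KO mice, and the *Supt6*-KO mouse 4 had the highest factor of its group. Control mice 1 and 3 had 3 and 2 counts from Y-linked genes, against 5483 to 7345 in the other 7 mice, so the control group held both sexes and the *Supt6*-KO group held males.

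Keratins are intermediate filament proteins that assemble as pairs of an acidic type I and a basic type II chain. Stratified epidermis builds its filaments from KRT5 and KRT14 in the basal layer and from KRT1 and KRT10 above it, whereas single-layered epithelia such as the gut lining use the type II keratins KRT7 and KRT8 with the type I keratins KRT18, KRT19 and KRT20. In normal skin, KRT8, KRT18 and KRT20 are known from Merkel cells, KRT19 from Merkel cells and the hair follicle, and KRT7 from glands. CDX2 and HNF4A are master transcription factors of intestinal epithelium, villin (*Vil1*) bundles actin in the microvilli of the brush border, liver-intestine cadherin (*Cdh17*) holds enterocytes together, and galectin-4 (*Lgals4*) binds glycans at their apical surface. The comparison asks whether loss of SPT6 from the epidermis of living mice brought such genes up, a question raised by earlier work on an intestinal programme in SPT6-depleted human keratinocytes.

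In GRCm38, the build called mm10, the type II genes lie on chromosome 15 and *Krt18* lies beside them, as GENCODE M21 places them. *Krt7* (gene 110310) spans chr15:101412402-101430313 on the plus strand with 9 exons, *Krt8* (gene 16691) spans chr15:101996698-102004482 on the minus strand with 9 exons, and *Krt18* (gene 16668) spans chr15:102028180-102032027 on the plus strand with 7 exons. *Krt8* and *Krt18*, whose proteins pair with each other, point away from one another across 23697 bases. The other type I genes lie on chromosome 11, *Krt19* (gene 16669) at chr11:100140810-100146120 on the minus strand with 6 exons and *Krt20* (gene 66809) at chr11:99428403-99438150 on the minus strand with 8 exons. *Cdh17* (gene 12557) spans chr4:11758147-11817895, *Vil1* (gene 22349) chr1:74409376-74435559 and *Lgals4* (gene 16855) chr7:28833854-28841708, all on the plus strand.

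The start regions of *Krt8*, *Krt18* and *Krt20* are shown because the 3 genes are used together by Merkel cells, and here *Krt8* and *Krt20* were called lower while *Krt18* was not. Each is the RefSeq window from 250 bases before to 50 bases after the annotated start in GRCm38.p6, written 5′ to 3′ on the strand of the gene, with matches to the TATA box letters TATAAA in capitals. The windows are chr15:102004293-102004592 (minus strand) for *Krt8*, chr15:102027966-102028265 (plus strand) for *Krt18* and chr11:99438104-99438403 (minus strand) for *Krt20*.
Krt8: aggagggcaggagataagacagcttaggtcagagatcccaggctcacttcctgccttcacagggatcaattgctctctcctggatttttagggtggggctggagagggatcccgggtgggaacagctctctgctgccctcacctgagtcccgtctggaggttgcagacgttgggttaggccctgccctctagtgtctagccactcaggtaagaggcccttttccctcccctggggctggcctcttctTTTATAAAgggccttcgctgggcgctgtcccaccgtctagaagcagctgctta
Krt18: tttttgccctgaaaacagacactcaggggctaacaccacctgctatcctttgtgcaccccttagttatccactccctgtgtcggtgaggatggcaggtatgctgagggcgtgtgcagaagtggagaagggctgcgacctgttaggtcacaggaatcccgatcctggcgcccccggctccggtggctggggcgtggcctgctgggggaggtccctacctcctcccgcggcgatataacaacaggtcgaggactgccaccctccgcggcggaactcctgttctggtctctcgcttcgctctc
Krt20: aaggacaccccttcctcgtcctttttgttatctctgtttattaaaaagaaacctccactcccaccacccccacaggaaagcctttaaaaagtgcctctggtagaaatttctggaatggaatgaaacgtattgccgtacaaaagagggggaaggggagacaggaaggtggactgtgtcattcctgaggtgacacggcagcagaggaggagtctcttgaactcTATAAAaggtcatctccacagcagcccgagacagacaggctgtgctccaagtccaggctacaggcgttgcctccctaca
The *Krt8* window holds the letters on both strands, overlapping in one run that begins 3 bases before the RefSeq start, while the GENCODE model of *Krt8* starts further upstream. The *Krt20* window holds them once, 29 bases before the start, and the *Krt18* window does not hold them. TATAAA was found on either strand in 13.6% of 32851 mouse promoter windows of this length. Searched in the same way, the GC box GGGCGG (35.7% of windows), the AP-1 letters TGANTCA (7.81%), the HNF4 letters CAAAGTCCA (0.475%) and the CDX letters TTTATG (11.9%) had no match in these 3 windows. A match describes the letters alone.

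*Supt6* itself was lower in every *Supt6*-KO mouse. It had 2786, 2068, 2297, 3370 and 3798 counts in control mice 1 to 5 and 684, 503, 478 and 791 counts in *Supt6*-KO mice 1 to 4. The groups did not overlap, and mean levels were 76.5 ± 17.2 CPM (SD, n = 5) and 25.7 ± 3.31 CPM (SD, n = 4), which is a log2 fold change of -1.57 (SE 0.18, edgeR quasi-likelihood test, adjusted p = 1.3e-05). After removal of a trend with gene length it was -0.97. In each library this trend was the slope of a gene's log2 deviation from its mean on log10 length. Slopes were 0.2522 to 0.7979 in the control mice and -0.716 to -0.5138 in the *Supt6*-KO mice, without overlap. The trend thus cannot be told apart from group in any fold given here, and its cause was not tested. In whole skin, fewer cells of a type and less RNA per cell cannot be told apart, here or in any result that follows.

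In control skin the 8 measured genes were minor transcripts. On the deposited TPM scale, which is per transcript length, *Krt8* was the highest of them in the control mice at 6.52 ± 2.02 TPM (SD, n = 5), and *Lgals4* followed at 4.3 ± 0.783 TPM. *Krt7* stood at 1.52 ± 0.295 TPM, *Krt19* at 1.37 ± 0.541 TPM and *Krt18* at 0.526 ± 0.492 TPM. *Krt20* stood at 0.332 ± 0.120 TPM, *Cdh17* at 0.098 ± 0.066 TPM and *Vil1* at 0.028 ± 0.015 TPM. Neighbours in this order overlapped between mice, except that every control had more *Lgals4* than any had *Krt7*, and more *Krt20* than any had *Cdh17*. Against these levels, *Krt14* averaged 3991 TPM, *Krt5* 3909 TPM, *Krt10* 12910 TPM and *Krt1* 614 TPM, so *Krt14* was 612.6 times as high as *Krt8*. Among all 17943 genes, *Krt8* ranked 9218th by mean TPM and *Vil1* 16331st. *Cdh17* and *Vil1* were near 0 and no mouse of either group exceeded 16 counts of *Cdh17* or 3 counts of *Vil1*.

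**Figure D1:**
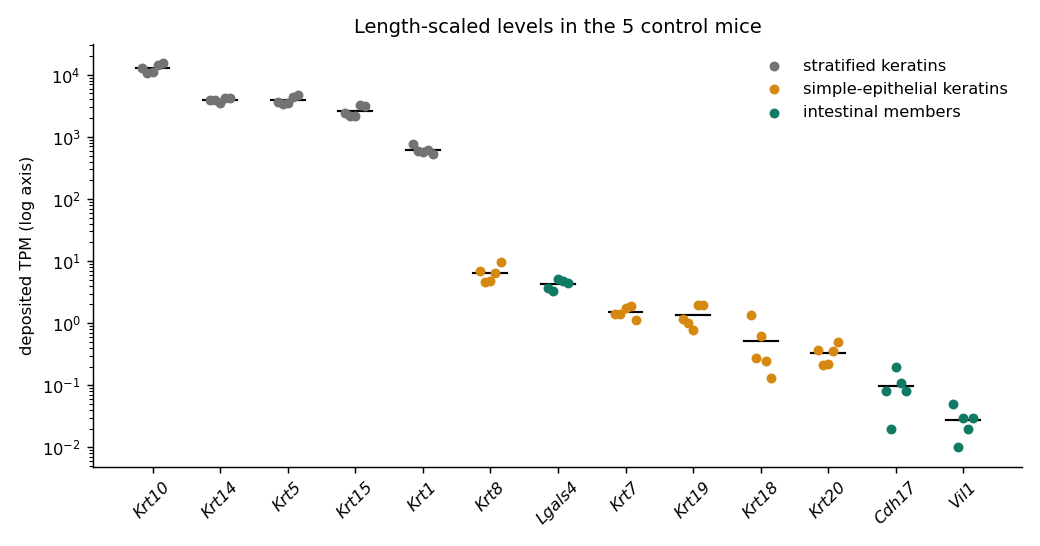
Deposited TPM (log axis) of the simple keratins, the intestinal members and 5 stratified keratins in the 5 control mice, with 1 point per mouse and a line at the mean. Every stratified keratin shown lies above every simple keratin, with *Krt1* at a mean of 614 TPM and *Krt8* at 6.52 TPM.

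After *Supt6* deletion none of the 8 genes was higher by the criteria used, an adjusted p under 0.05 and at least a 2-fold change, and 3 were lower: *Krt8*, *Krt19* and *Krt20*. The test was edgeR's quasi-likelihood test over all 16426 genes, with Benjamini-Hochberg adjustment, and 20.9% of all genes tested were called higher and 24.9% lower, 45.8% in all (3427 and 4088 genes, or 1470 and 6802 with library totals in place of TMM factors). At an unadjusted p under 0.05, 0 members were higher and 3 lower, beside 21.1% and 25.2% of all genes, and DESeq2 also gave 0 and 3. The median log2 fold change of the 7 genes other than *Vil1*, for which no fold is given, was -1.20, beside -0.072 over all genes tested. The 3 lower genes were also the 3 whose *Supt6*-KO values lay below every control, which 31.8% of all genes did, so 3 of 8 was not far from the share in the whole table.

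*Krt8*, the type II partner of KRT18 and the most abundant simple keratin of the control mice, had the largest change of the 3. Control mice 1 to 5 had 243, 182, 181, 215 and 298 counts and *Supt6*-KO mice 1 to 4 had 31, 17, 25 and 30 counts. All 4 *Supt6*-KO mice lay far below the lowest control, and they differed little among themselves. Mean levels were 5.98 ± 1.10 CPM (SD, n = 5) and 1.08 ± 0.200 CPM (SD, n = 4), so *Supt6*-KO skin held 18.1% of the control level, a log2 fold change of -2.46 (SE 0.22, 95% interval -2.88 to -2.04, edgeR adjusted p = 2.5e-06). Within each library, the log2 ratio of *Krt8* to *Krt5* also fell by 1.54 and that of *Krt8* to *Krt14* fell by 3.00. Each ratio passed a two-sided exact permutation test at its smallest possible p of 0.0159, or 0.0424 after adjustment over the 8 ratios examined. *Krt8* has processed copies elsewhere in the genome, and how the counting divided reads among them was not tested.

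*Krt7*, the other type II simple keratin, was detected in every mouse without a difference beyond the spread. It had 42, 47, 56, 53 and 30 counts in control skin and 33, 31, 40 and 10 in *Supt6*-KO mice 1 to 4. Mouse 4 of the *Supt6*-KO group was the lowest of all 9 and the other 3 lay within or above the control range after scaling. The log2 fold change was 0.03 (SE 0.39, 95% interval -0.74 to 0.79, edgeR adjusted p = 0.96), an interval that leaves room for a change of over 1.5-fold in either direction, and with library totals it was -0.72 (adjusted p = 0.09).

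Among the type I chains, *Krt19* fell. This keratin, the smallest of the family, lacks most of the tail domain of other keratins. It had 22, 23, 20, 39 and 43 counts in control skin and 10, 4, 7 and 5 in *Supt6*-KO mice 1 to 4. The groups did not overlap, at 0.784 ± 0.267 CPM (SD, n = 5) and 0.277 ± 0.113 CPM (SD, n = 4), which is a log2 fold change of -1.49 (SE 0.38, edgeR adjusted p = 0.0039). Set against *Krt14* of the same library, *Krt19* fell by 2.06 on the log2 scale (two-sided exact permutation test, p = 0.0159, adjusted p = 0.0424), whereas against *Krt5* the difference of -0.60 did not pass (p = 0.2381 in the same exact test, adjusted p = 0.381).

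*Krt20*, a keratin of Merkel cells and of differentiated gut epithelium, was scarce in every mouse. Control mice had 14, 9, 9, 13 and 17 counts and *Supt6*-KO mice had 4, 0, 4 and 2 counts. All controls lay above all *Supt6*-KO mice, although 3 of the 4 *Supt6*-KO mice had at most 4 counts and the fourth had none. The log2 fold change was -1.61 (SE 0.55, edgeR adjusted p = 0.02). Over the summed counts, 62 against 10, the level in controls was 3.14 times that in *Supt6*-KO mice, with an exact 95% interval of 1.60 to 6.88 that covers counting error only. *Krt20* did not pass in male mice alone (log2 fold change -1.66, edgeR adjusted p = 0.05), and a filter of 10 counts in every mouse leaves it out. With a replicate block over mice 1 to 4 it did not pass either (-1.55, edgeR adjusted p = 0.059).

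*Krt18*, the type I partner of KRT8, varied most between mice. It had 34, 8, 17, 6 and 3 counts in control skin and 5, 2, 6 and 64 in *Supt6*-KO mice 1 to 4. Mouse 4 of the *Supt6*-KO group had the highest count of all 9 mice, and the other 3 were within the range of the controls after scaling. The log2 fold change was 1.02 (SE 0.86, edgeR adjusted p = 0.31) with this mouse and -0.91 (adjusted p = 0.31) without it, so its sign rested on 1 library. With all 4 *Supt6*-KO mice it was 2.26 against male controls alone (edgeR adjusted p = 0.075) and 0.46 with library totals (adjusted p = 0.66). A replicate block over mice 1 to 4 gave 0.18 (edgeR adjusted p = 0.88). *Krt18* also has processed copies in the genome, with the same limit on the counting.

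**Figure D2:**
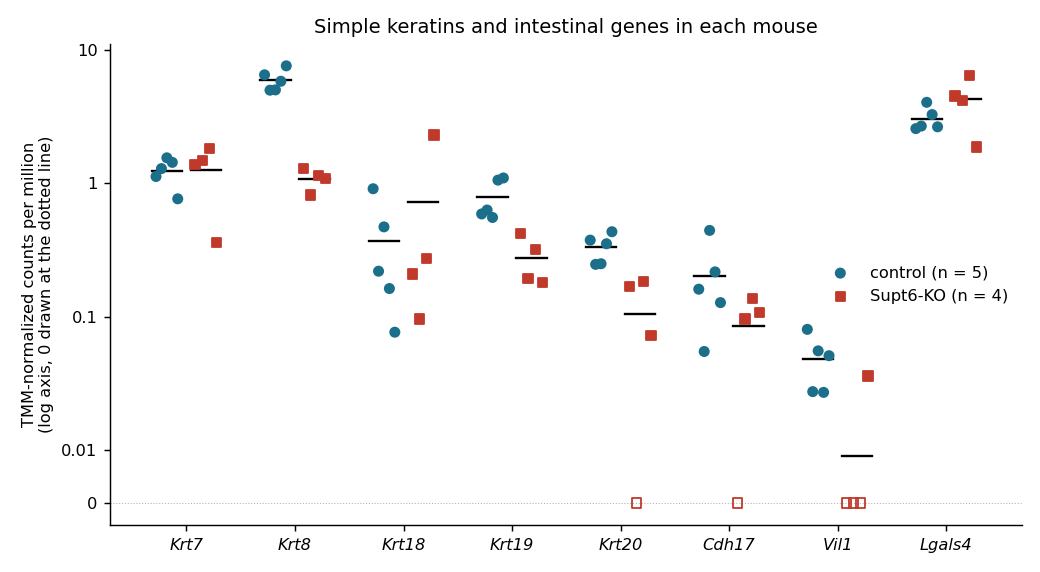
TMM-normalized CPM (log axis, zeros drawn as open symbols at the dotted line) of the 8 measured genes in each of 5 control and 4 *Supt6*-KO mice, with a line at each mean. *Krt8*, *Krt19* and *Krt20* show no overlap between groups, and *Supt6*-KO mouse 4 stands alone for *Krt18* at 2.3 CPM.

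The intestinal members were not higher by the test. *Lgals4*, the only 1 of them above 1 CPM, had 96, 98, 146, 121 and 104 counts in control skin and 108, 87, 141 and 52 in *Supt6*-KO mice 1 to 4. *Supt6*-KO mice 1 to 3 lay above every control after scaling and mouse 4 lay below every control, so the means of 3.04 ± 0.625 CPM (SD, n = 5) and 4.25 ± 1.88 CPM (SD, n = 4) overlapped in their ranges. The log2 fold change was 0.48 (SE 0.30, 95% interval -0.12 to 1.07, edgeR adjusted p = 0.18). Without *Supt6*-KO mouse 4 it was 0.72 (adjusted p = 0.0097), still less than 2-fold, and without *Supt6*-KO mouse 3 it was 0.2 (edgeR adjusted p = 0.56). With the length trend removed it was 0.17 (edgeR adjusted p = 0.63), and with library totals in place of TMM factors it was -0.26 (adjusted p = 0.41). The nearly identical gene *Lgals6* was listed with 0 to 2 counts per mouse, and reads of the 2 genes may not be separable.

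*Cdh17* had 6, 2, 16, 8 and 5 counts in control skin and 0, 2, 3 and 3 in *Supt6*-KO mice 1 to 4, none of which exceeded the floor of 3 counts. Its fitted log2 fold change was -1.20 (SE 0.73, edgeR adjusted p = 0.16), or -1.87 (adjusted p = 0.035) with library totals. It was -0.83 with the length trend removed, -0.62 in male mice, -0.69 without control mouse 3 and -0.79 without *Supt6*-KO mouse 1, and passed in none of these. *Vil1* had 3, 1, 2, 1 and 2 counts in control skin and 0, 0, 0 and 1 in *Supt6*-KO mice 1 to 4. With both groups at or under the floor, no fold was given for *Vil1*, which was not called (it was called lower with library totals).

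**Figure D3:**
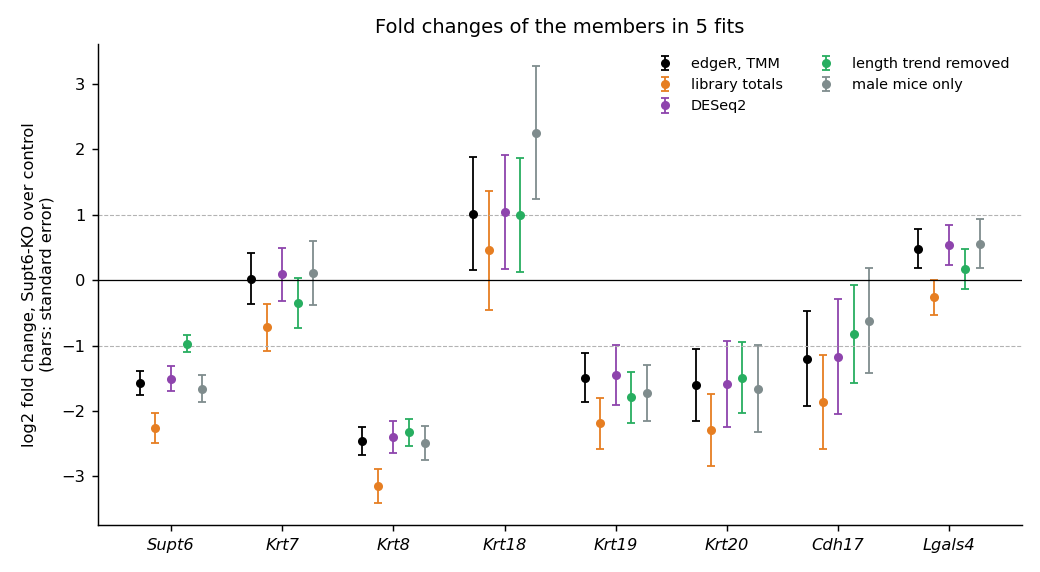
Log2 fold change of *Supt6* and the 7 genes with a fold (points, with the SE as bars) in 5 fits, with dashed lines at a 2-fold change in either direction. *Krt8* lies between -3.15 and -2.33 in these fits, whereas *Krt7* lies between -0.72 and 0.11 and *Lgals4* turns sign with library totals (-0.26).

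The simple keratins were set beside the rest of the keratin family. Of 53 keratin genes with a row, 52 were tested, and of the 47 outside the simple group 10 were called higher and 28 lower, beside 20.9% and 24.9% of all genes, with a median log2 fold change of -1.96, against 0 higher and 3 lower of 5 and a median of -1.49 for the simple keratins. The 5 simple keratins made up 195.3 to 254.8 of every 1000000 keratin counts in the control mice and 65.99 to 89.56 in the *Supt6*-KO mice, with no overlap. Without *Krt8* the other 4 made up 60.61 to 74.45 and 45.22 to 62.26, and the groups overlapped. Of the 4 main epidermal keratins, only *Krt1* was called. *Krt1*, the suprabasal type II keratin, went from 832.9 ± 159.4 to 10420 ± 2428 CPM (log2 fold change 3.65, SE 0.24, edgeR adjusted p = 5.3e-07). Its partner *Krt10* stood at 14340 ± 729.7 and 16350 ± 5762 CPM (0.19, adjusted p = 0.56). The basal *Krt5* went from 4631 ± 201.5 to 2544 ± 848.5 CPM (log2 fold change -0.86, adjusted p = 0.0048), less than 2-fold, and the basal *Krt14* stood at 3379 ± 304.0 and 5355 ± 2915 CPM (0.66, adjusted p = 0.063).

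A wider list held 83 other genes of intestinal epithelium. Of these, 71 had a row and 52 were tested, of which 13 were called higher and 18 lower, with a median log2 fold change of -0.36, beside 20.9% higher, 24.9% lower and a median of -0.072 over all genes tested. The counts of the 4 groups that follow, and of the marker lists after them, stand beside these same shares, and the most abundant gene of a list is by the mean over all 9 mice, an order that can differ within a group. Scaling by library totals instead gave 8 higher and 25 lower. Of the 71, 18 had at most 3 counts in every mouse. In all, 33 genes averaged at least 1 CPM in control skin and 31 in *Supt6*-KO skin, and *Reg3g* was the 1 tested gene to pass from below to above 1 CPM.

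The transcription factors of the list had 2 called higher and 5 lower of 9 tested. *Elf3*, an ETS factor of epithelial differentiation that is also used in epidermis, had 31 to 48 counts in control skin and 186, 146, 202 and 1011 in *Supt6*-KO mice 1 to 4. Every *Supt6*-KO mouse exceeded every control, and mouse 4 was several times higher than the other 3 (log2 fold change 3.79, SE 0.49, edgeR adjusted p = 3.5e-05). *Prdm1*, which encodes BLIMP1 and was the most abundant of these factors over all 9 mice, went from 31.1 ± 4.65 to 68.5 ± 22.7 CPM (1.14, adjusted p = 0.00057). The vitamin D receptor *Vdr* (-1.74), *Gata6* (-1.52) and *Klf5* (-1.001) fell, as did *Foxa2*, which was below 1 CPM in both groups and is named after its values were seen. *Hnf4g*, the paralog of *Hnf4a*, had 0 to 4 counts in every mouse. *Foxa1*, *Foxa3* and *Isx* did not reach 10 counts over the 9 mice, and *Cdx1*, *Gata4*, *Gata5* and *Pdx1* had no row.

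Genes of the brush border had 5 called higher and 6 lower of 16 tested, beside 20.9% and 24.9% of all genes. The apical peptidase gene *Dpp4* went from 5.74 ± 1.37 to 31.2 ± 13.8 CPM, with every *Supt6*-KO mouse above every control (log2 fold change 2.44, SE 0.30, edgeR adjusted p = 2.3e-05). The sodium-glucose cotransporter gene *Slc5a1* rose by 1.64 on the log2 scale, also with no overlap between groups. *Lct* and *Apoa1* were also called higher, with at most 18 and 11 counts in any mouse. Among the lower genes, *Espn*, an actin bundler, had 27 to 96 counts in the control mice and 2, 1, 3 and 4 in *Supt6*-KO mice 1 to 4 (-3.97, adjusted p = 2.3e-05). The bundler *Pls1* fell by 3.30, the villin-like *Vill* by 1.33 and the membrane linker *Ezr* by 1.04. The aminopeptidase gene *Anpep* fell by 1.92, and *Anks4b* was at 0 in all 4 *Supt6*-KO mice and at 2 to 12 counts in controls.

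Surface and junction genes had 1 called higher and 4 lower of 15 tested. *Tspan8*, a tetraspanin, went from 58.5 ± 17 to 10.3 ± 4.04 CPM (log2 fold change -2.50, edgeR adjusted p = 2.5e-05). The adhesion gene *Ceacam1* fell by 1.99, *Cldn2*, which encodes a channel-forming claudin, by 1.81 and *Cldn3* by 1.40. *Cldn7*, the gene called higher, had at most 19 counts in any mouse and its groups overlapped. *Lgals3*, which encodes a galectin of many epithelia and was the most abundant of the list, stood at 1047 ± 163.6 and 1491 ± 349.4 CPM (0.51, adjusted p = 0.038), less than 2-fold.

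Secretory and stem cell genes had 5 called higher and 3 lower of 12 tested. *Reg3g*, an antimicrobial lectin gene that inflamed skin also expresses, had 1, 2, 2, 1 and 2 counts in the control mice and 11, 31, 129 and 68 in *Supt6*-KO mice 1 to 4 (log2 fold change 5.78, SE 0.73, edgeR adjusted p = 2.9e-05). *Lyz1*, a lysozyme gene listed for Paneth cells, went from 19.1 ± 3.14 to 81.9 ± 24.4 CPM (2.10, adjusted p = 4.6e-06). How the counting divided reads between *Lyz1* and other lysozyme genes was not tested. *Olfm4* was at 0 in all 5 controls and had 6, 28, 35 and 20 counts in the *Supt6*-KO mice. *Spdef* and *Spink4* were called higher with at most 6 and 17 counts in any mouse, and the groups overlapped for *Spink4*. *Fcgbp*, which encodes a mucus protein and was the most abundant of this group over all 9 mice, had 20354, 13108, 18418, 26513 and 27310 counts in control skin and 674, 434, 162 and 55 in *Supt6*-KO mice 1 to 4, a log2 fold change of -5.28 (SE 0.67, adjusted p = 3.1e-05). In skin it is not only an intestinal gene, because the study's single-cell data use *Fcgbp* as a marker of basal keratinocytes. The stem cell genes *Smoc2* (-1.66) and *Lgr5* (-1.54) fell, of which the hair follicle list also holds *Lgr5*, and the mucin gene *Muc2* had at most 10 counts in any mouse. *Cldn7*, *Lct*, *Apoa1*, *Anks4b*, *Olfm4*, *Spdef* and *Spink4* lay outside the rule for named genes and were chosen after their values were seen.

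**Figure D4:**
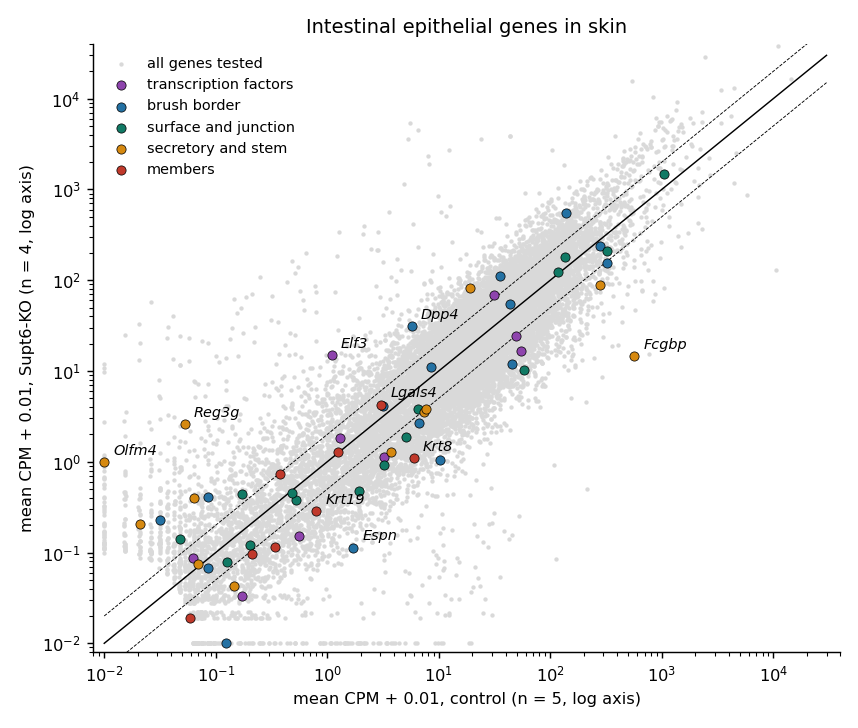
Mean CPM + 0.01 in *Supt6*-KO against control skin (both log axes) for all 16426 genes tested (grey), the 8 measured members (red) and 52 other intestinal genes by group, with the line of equality and dashed lines at 2-fold. The coloured points lie on both sides of the line, with *Reg3g* and *Elf3* above it and *Fcgbp*, *Espn* and *Krt8* below.

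Markers of the cell types that carry simple keratins in skin were read beside *Krt8*. Of 14 Merkel cell genes, which all had a row, 9 were tested, 0 were called higher and 4 lower, with a median log2 fold change of -0.35, and over all genes 24.9% were called lower. The most abundant over all 9 mice, *Cplx2*, which encodes a synaptic vesicle protein, had 112, 105, 118, 129 and 181 counts in the control mice and 15, 6, 13 and 8 in *Supt6*-KO mice 1 to 4 (log2 fold change -2.94, SE 0.30, edgeR adjusted p = 6.4e-06). The mechanical channel gene *Piezo2* fell by 1.97 and the transcription factor gene *Isl1* by 1.90, and *Sst*, at most 5 counts in any mouse, was the fourth. The defining factor *Atoh1* had 0 to 3 counts in every mouse, and *Sox2* stood at a log2 fold change of -0.35 (adjusted p = 0.64). The other 4 tested genes, named after their values were seen, were not called either: *Syp* stood at -0.09, *Gfi1* at -0.06, *Chgb* at -0.27 and *Snap25* at 0.48. The list summed to 8.317, 7.337, 9.716, 8.249 and 13.06 CPM in the control mice and 3.384, 2.783, 4.482 and 3.233 CPM in the *Supt6*-KO mice, with no overlap, and without *Cplx2* it averaged 5.89 and 3.02 CPM. Their part in the fall of *Krt8*, *Krt19* and *Krt20* was not tested.

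Of 11 genes of the outer hair follicle, all were tested, 1 was called higher and 8 lower, beside 20.9% and 24.9% of all genes. *Krt15*, the keratin of follicle stem cells and the most abundant of the list, went from 2303 ± 271.0 to 367.1 ± 106.5 CPM (log2 fold change -2.65, edgeR adjusted p = 2.2e-06). *Nfatc1* (-2.18), *Lgr6* (-2.17), *Sox9* (-1.79) and *Lhx2* (-1.77) fell with it, and *Plet1* rose (1.34, adjusted p = 0.015) with overlap between groups. The list summed to 2975 ± 306.3 CPM in the control mice and 724.2 ± 53.3 CPM in the *Supt6*-KO mice, or 672.1 and 357.2 CPM without *Krt15*. Sebaceous gland genes had 0 called higher and 7 lower of 10, led in abundance by the desaturase gene *Scd1* (-2.76), with a sum of 6748 ± 546 and 1428 ± 315.4 CPM, or 910.6 and 565.4 CPM without *Scd1*. *Mc5r* (-3.61), *Acaa1b* (-3.50), *Pparg* (-2.10) and *Far2* (-1.997) were among them. Their part in the keratin values was not tested either.

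Genes listed as gland markers, read beside *Krt7*, divided. Of 10 sweat or mammary gland genes, 7 had a row and 5 were tested, with 2 called higher and 3 lower. The water channel gene *Aqp5* had 17 to 33 counts in the control mice and 881, 1040, 1546 and 799 in *Supt6*-KO mice 1 to 4, all above the controls (log2 fold change 6.24, SE 0.30, edgeR adjusted p = 8.9e-08), and *Elf5* rose by 1.62. *Krt77*, a type II keratin listed for eccrine ducts and the most abundant of the list over all 9 mice, fell from 763.3 ± 315.0 to 15.2 ± 11.7 CPM (-5.65, adjusted p = 1.8e-05), with *Prlr* (-1.48) and *Foxc1* (-1.20). In the control mice *Krt77* stood near the epidermal *Krt1* (832.9 ± 159.4 CPM). Which cells carried *Krt77*, in glands or in epidermis, was not tested. The list summed to 428.3 to 1278 CPM in the control mice and 60.03 to 105.9 CPM in the *Supt6*-KO mice, whereas without *Krt77* it averaged 45.2 and 75.1 CPM. Of 5 genes of mesothelium, another simple epithelium with these keratins, 3 were tested, 1 was called higher and 1 lower. *Msln* had 2 or 3 counts in each control and 2, 5, 19 and 95 counts in *Supt6*-KO mice 1 to 4 (4.00, adjusted p = 0.0018). *Upk3b*, the most abundant of those 5 over all 9 mice, had 60 to 93 counts in control skin and 0, 0, 0 and 2 in *Supt6*-KO mice 1 to 4. The list summed to 1.752 to 2.728 CPM in the control mice and 0.0836, 0.240, 0.869 and 3.52 CPM in *Supt6*-KO mice 1 to 4. The part of these markers in the values of *Krt7* and *Krt18* was not tested. *Supt6*-KO mouse 4 was thus highest of its group for *Krt18*, *Msln*, *Elf3* and *Plet1* and lowest for *Krt7* and *Lgals4*, and what sets it apart was not tested.

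Among the other lists, the 8 epidermal markers had 2 called higher, *Krt1* and *Ivl* (1.99), and 3 lower, *Col17a1* (-2.45), *Lor* (-1.23) and *Trp63* (-1.21), and *Krt10* was the most abundant. The list summed to 25840 ± 1241 CPM in the control mice and 35820 ± 5137 CPM in the *Supt6*-KO mice, or 11500 and 19470 CPM without *Krt10*. By RT-qPCR and by protein staining of dorsal skin, the study reports both *Lor* and *Krt10* as higher after the deletion. Why the counts here differ was not tested. All 5 cartilage genes tested were lower, with log2 fold changes of -3.86 for *Col2a1*, -3.55 for *Acan*, the most abundant, -3.35 for *Col11a2*, -2.80 for *Col9a1* and -2.52 for *Cnmd*, and their sum went from 452.6 ± 185.9 to 50.9 ± 4.82 CPM, or from 298.2 to 37.7 CPM without *Acan*. Of 7 immune genes 3 were higher and 2 lower: the alarmin gene *S100a8*, the most abundant over all 9 mice but not in controls, went from 8.20 ± 4.76 to 1919 ± 727.1 CPM and *Itgam* rose by 1.06, while *Cd3e* of T cells (-4.13) and *Cd207* of Langerhans cells (-2.12) fell. The third higher gene, *Ly6g*, had at most 15 counts in any mouse.

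**Figure D5:**
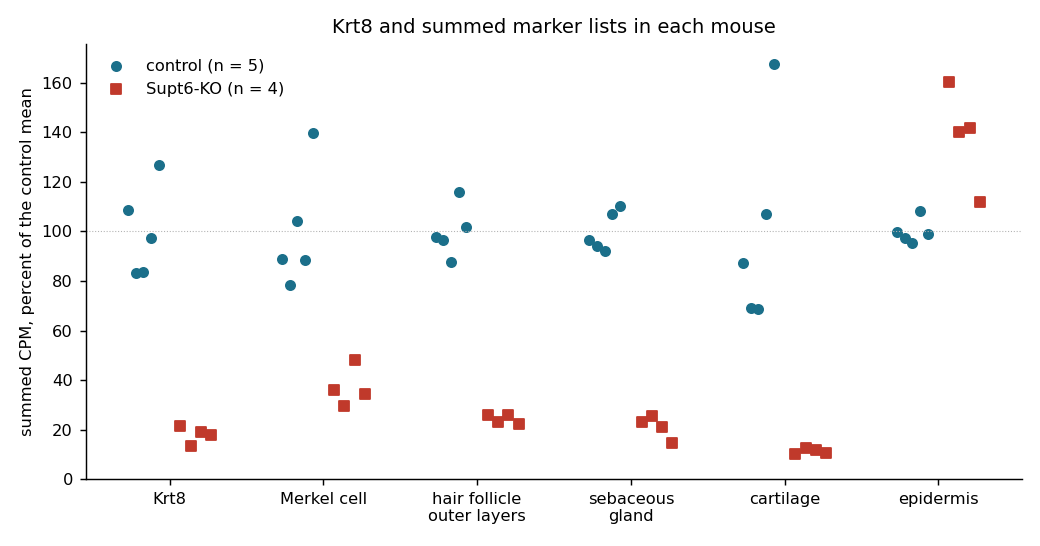
*Krt8* and the summed CPM of 5 marker lists in each mouse, as percent of the control mean (dotted line at 100), for 5 control and 4 *Supt6*-KO mice. *Krt8* and the Merkel cell, hair follicle, sebaceous and cartilage sums lie below every control in all *Supt6*-KO mice, and the epidermal sum lies above, at 28970 to 41420 CPM against 24690 to 27930 CPM.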

How the data were processed

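RNA-Seq libraries of 9 mice (5 control, 4 *Supt6*-KO), grouped by their labels as separate mice, were compared. Per the submitters' processing notes and the study's methods, the authors used Bowtie2 2.3.4.3 and RSEM 1.3.1 with mm10, and the annotation release is not given in the sources used here. The authors deposited estimated counts per gene, not normalized between samples, of which 9.0% were not whole and all were rounded before testing, and TPM values (per length, scaled to the library) for 5 controls and *Supt6*-KO mouse 4, used only for levels between genes. Columns of the authors' own comparison were not used. Gene identifiers were matched to RefSeq (17850 of 17943), and gene models are from GENCODE M21.

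The test was edgeR 4.0.16 (quasi-likelihood, R 4.3.3) with TMM factors, on genes with at least 10 counts summed over the mice, with calls at an adjusted p under 0.05 and at least 2-fold. CPM are TMM-scaled. A number of 3 counts (0.0764 to 0.144 CPM, by mouse) were taken as the floor of a library, and floors and count intervals cover counting error only. The scripts were tested on simulated data. The genes and lists were chosen with earlier results of these data known. Named genes are *Supt6*, all members, 4 epidermal keratins, the most abundant gene of each list and up to 5 called genes in each direction with the largest change at 1 CPM or more in the higher group. The results of some genes of these lists are not reported here. Alternatives were DESeq2 1.42.0, library totals, other filters, a gene length correction, a replicate block, leaving out each mouse and, added after the data were seen, male mice only. Tables were made in pandas 2.3.3 and scipy 1.17.1 under Python 3.11.15.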

Additional observations from a re-analysis of the deposited data

Results flagged for a closer look

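Of 18 groups of mice examined for a value far from the rest of its group (9 genes in 2 groups), 2 were picked out, where chance gives 0.9. *Krt18* in *Supt6*-KO mouse 4 stood at 2.3 CPM (64 counts) with a group median of 0.242 CPM. *Vil1* in the same mouse stood at 0.0359 CPM, which is a single count against 0 in the other 3 *Supt6*-KO mice. A single read is enough to be picked out among zeros, so the number given by chance may not hold for such genes.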

How the results depend on the processing

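No member was called higher under any of the 17 alternatives, of which the filter of 10 counts in every mouse tested only *Krt7*, *Krt8* and *Lgals4*. The log2 fold change of *Krt8* stayed between -3.15 and -2.33 and was called in each fit. With library totals in place of TMM factors, which moved the median of all genes from -0.072 to -0.759 on the log2 scale, 1470 genes were called higher and 6802 lower, 5 members were lower (*Cdh17*, at -1.87 with adjusted p = 0.035, and *Vil1* beside the 3) and 8 intestinal genes were higher and 25 lower, while *Krt7* turned to -0.72 and *Lgals4* to -0.26; the cause was not tested. With at least 10 counts required in every mouse, 13151 genes were tested, of which 2627 were called higher and 3073 lower. Under that filter 1 member, *Krt8*, was lower, 6 intestinal genes were higher and 14 lower, and *Krt7* was at -0.03. The filter left out the other 5 members. After removal of the trend with gene length, *Krt7* was at -0.35 and *Supt6* at -0.97, under 2-fold. Leaving out 1 mouse at a time gave 3 lower members each time, 11 to 13 intestinal genes higher and 16 to 20 lower, 3248 to 3476 genes higher and 3845 to 4204 lower, -0.21 to 0.34 for *Krt7* and -0.91 to 1.67 for *Krt18*. A replicate block over mice 1 to 4 gave 2 lower members (*Krt8* and *Krt19*), *Krt20* at -1.55 (adjusted p = 0.059), *Krt7* at -0.21, and 3139 genes higher and 3836 lower. Deviations from the group mean correlated at a mean of 0.152 in same-numbered mice (0.0209 to 0.251, n = 4 pairs). For other numbers the mean was -0.0328 (-0.254 to 0.314, n = 16 pairs). So few same-numbered pairs cannot decide whether the numbers pair the mice. In male mice, 2 members were lower (*Krt8*, *Krt19*). A sex covariate could have been fitted, because the control group held both sexes, but was not run. The *Supt6*-KO group held males only. The depth limits *Krt7*, *Krt18*, *Krt19*, *Krt20*, *Cdh17* and *Vil1*, none of which exceeded 64 counts in any mouse.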

Other observations

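Across the 9 mice, the genes with log2(CPM + 1) values most like those of *Krt8*, among 13563 genes at 1 CPM or more, were *Plcl2* (r = 0.997), *Aco1*, *App*, *Prrg3* and *Dmtn* (each r = 0.996), and all 5 were lower in *Supt6*-KO skin, by 1.10 to 3.16 on the log2 scale. The genes most like *Lgals4* were *Igtp* (r = 0.984), *Cdc14b* (0.965), *Gbp4* (0.956), *Doc2g* (0.940) and *Zfp688* (0.927), of which *Igtp* and *Gbp4* encode interferon-induced GTPases. These correlations describe the 9 mice, which differ by group, and carry no test.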
